A study of Mus musculus with 12 samples.

Results

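The stearoyl-CoA desaturase genes Scd1 and Scd2, the sterol reductase gene Dhcr7 and the nuclear receptor gene Pparg were followed across 2 mouse bone cell lines, 4 of the 4605 named genes on the arrays, each read by 1 of 5030 spots. They were found by their current mouse symbols and had been picked because of their levels in these same samples, so their levels and differences are given as a description, with no p-value. Total RNA was measured on 12 arrays, 3 in each of 4 groups. The groups called 2T3 C0 and 2T3 low hold an osteoblast line from a mouse in which the BMP-2 promoter drives the SV-40 T antigen. Those called MLO-Y4 low and MLO-Y4 high hold an osteocyte line from a mouse in which the osteocalcin promoter drives T antigen. All 4 groups are therefore immortalised cells that carry T antigen, and each cell type is 1 line. Per the labels, sparse osteoblasts were set against confluent ones, and osteocytes with gap junctions against osteocytes without them. The labels do not define C0 or high, so taking C0 for confluent cells and high for cells with gap junctions rests on the name low of the other group in each line. The labels number the arrays 1 to 3 but do not say that a number is a separate culture, so the spread between arrays may be technical.

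Stearoyl-CoA desaturases sit in the endoplasmic reticulum and put the first double bond into saturated fatty acids, which makes the monounsaturated fats of membranes and stored lipid. Mice carry several such genes side by side, of which Scd1 is best known from liver, fat and skin glands and Scd2 from brain and the newborn. Dhcr7 encodes the enzyme that reduces 7-dehydrocholesterol to cholesterol, and its substrate is also the precursor of vitamin D. Pparg encodes a fatty acid-sensing nuclear receptor that pairs with the retinoid X receptors, drives fat cell formation and, in marrow precursor cells, holds back bone formation.

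On the mouse assembly GRCm38.p6, RefSeq places Scd2 at chr19:44293676-44306864 and Scd1 at chr19:44394450-44407709, with 87585 bases between them. Dhcr7 lies at chr7:143823167-143848410 and Pparg at chr6:115360879-115490404. The probe sequences were not used here, so how far the spots of the related genes Scd1 and Scd2 each pick up the other's RNA was not tested. Which Pparg or Dhcr7 transcripts the spots read is not known either. RefSeq promoter windows, from 250 bases before to 50 after a start, were at hand for 2 of the 4 genes, Dhcr7 and Pparg, with 3 windows each, and the Pparg windows span starts 60922 bases apart. The most downstream window of each is shown because these are the 2 windows that hold 2 copies of the box CCAAT, in capitals on either strand (CCAAT or ATTGG). NF-Y binds this box and acts beside the sterol-sensing SREBP factors at many lipid genes. The Dhcr7 window is chr7:143829964-143830263 and the Pparg window chr6:115421816-115422115, both on the plus strand.
Dhcr7: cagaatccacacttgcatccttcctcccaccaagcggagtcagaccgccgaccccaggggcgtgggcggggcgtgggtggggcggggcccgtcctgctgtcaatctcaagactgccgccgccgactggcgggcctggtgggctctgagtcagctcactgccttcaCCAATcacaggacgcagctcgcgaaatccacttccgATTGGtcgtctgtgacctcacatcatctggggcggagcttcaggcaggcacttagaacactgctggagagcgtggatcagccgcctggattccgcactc
Pparg: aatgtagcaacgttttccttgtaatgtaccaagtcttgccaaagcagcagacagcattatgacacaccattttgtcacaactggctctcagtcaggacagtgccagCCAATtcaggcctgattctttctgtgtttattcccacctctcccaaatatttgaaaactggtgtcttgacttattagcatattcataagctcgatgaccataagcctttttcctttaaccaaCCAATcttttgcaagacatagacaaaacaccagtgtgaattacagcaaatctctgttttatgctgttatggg
Of all 32851 promoter windows of this length, 37.4% hold CCAAT at least once on either strand. The share with 2 copies was not counted, and the windows shown were picked for their copies, so nothing is read from them. Of the other windows, 1 of Pparg holds 1 copy and the rest of both genes hold none.

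Deposited intensities were scaled so that all arrays had the same median, and values under 3.96 scaled units, the 25th percentile, were raised to this floor before log2 was taken. A spot counted as above the limit on an array where its value exceeded the size of that array's lowest, negative, value. The floor and the limit follow earlier work on these data. Array medians ran from 4 to 55 deposited units, and the arrays numbered 1 of both MLO-Y4 groups had the highest limits, 36.3 and 34.3 scaled units against 4.04 to 13.6 on the other 10. The scaling also shifts the lines against each other: for the 1253 spots that every array read above its limit, the median log2 difference of MLO-Y4 from 2T3 was 0.79 with equal medians, 0.04 with quantile normalization and -0.07 under detected-spot scaling, which equalises the medians of those 1253 spots. Osteocyte markers differed between the lines as labelled for some genes: Pdpn, Capg, Cd44 and Ackr3, 4 of 5 measured, were higher in MLO-Y4 (limma adjusted p from 2.13e-05 to 0.0145), while Phex was above the limit on 0 of 12 arrays. Among 5 osteoblast markers Alpl, which encodes alkaline phosphatase, went against the labels, with 42.7 scaled units in 2T3 and 308 in MLO-Y4 (limma adjusted p = 0.0389), and Bglap, Ibsp, Omd and Dlx5 were not called. Of 3 measured fat cell markers, Lpl, Lep and Cebpa, none differed between the lines by limma (adjusted p from 0.202 to 0.700), and their summed level ran from 33.0 to 206 scaled units in 2T3 and from 11.9 to 75.7 in MLO-Y4. Cebpa was above the limit on 1 of 12 arrays. The summed level of 5 macrophage markers ran from 73.7 to 293 in 2T3 and from 48.4 to 142 in MLO-Y4, and Ptprc was above the limit on 0 of 12 arrays. Cd68 was above it on 6 2T3 and 3 MLO-Y4 arrays, Cd14 on 5 and 3, and Csf1r on 1 and 2. Tyrobp, an adaptor of immune receptors, was the 1 macrophage marker called, at 67.3 scaled units in 2T3 and 8.25 in MLO-Y4 (limma adjusted p = 0.0110). Tyrobp was thus lower in MLO-Y4 as Scd2 and Pparg were, and its part in those differences was not tested. All marker levels and tests here are with equal medians, and are not given under the other scalings. Of the 3 scalings, equal medians raised MLO-Y4 most over the 1253 spots.

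The 2 desaturase genes moved in opposite directions between the lines. Scd1 was 5.44-fold brighter in the osteocyte line and Scd2 8.68-fold brighter in the osteoblast line, over 6 arrays each. In such bulk RNA, fewer cells of a type and less RNA per cell cannot be told apart. Dhcr7 was 3.91-fold brighter in the osteocyte line and Pparg 5.19-fold brighter in the osteoblast line. Within a line, Pparg was 3.45-fold brighter in 2T3 C0 than in 2T3 low, without overlap under any of 3 scalings, while the density differences of Scd1 were smaller than its differences between the lines.

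**Figure D1:**
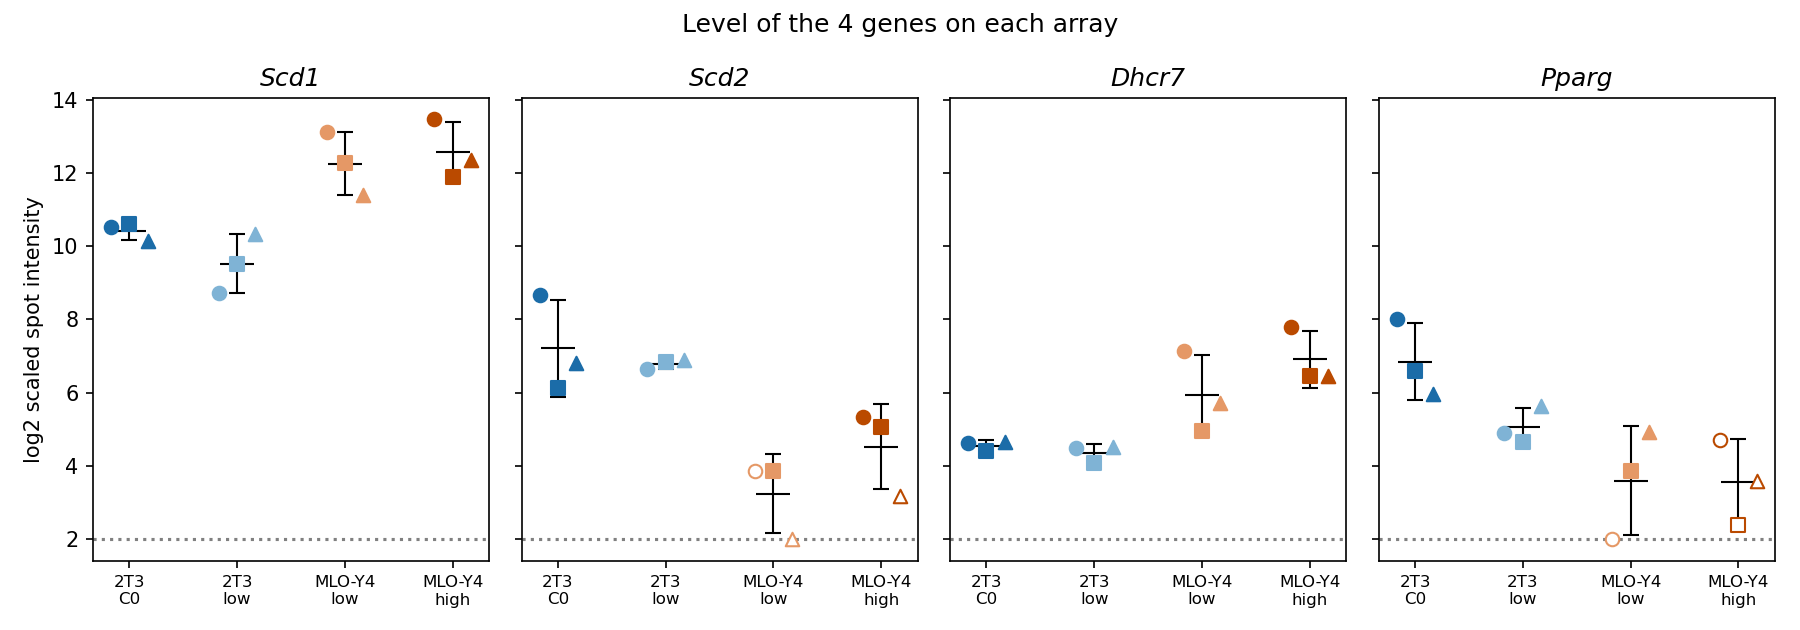
The log2 scaled intensity of each gene is plotted for the 12 arrays, with circles, squares and triangles for arrays 1, 2 and 3 of a group, bars for the group mean and SD (n = 3), open symbols for values not above the limit and a dotted line at the floor. All 6 MLO-Y4 arrays lie above all 6 2T3 arrays for Scd1 and Dhcr7 and below them for Scd2.

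Scd1 was a bright spot on every array, above the limit on 12 of 12. In 2T3 C0 it read 1464, 1549 and 1132 scaled units on arrays 1, 2 and 3, and in 2T3 low 425, 728 and 1290. In MLO-Y4 low it read 8841, 4955 and 2674, and in MLO-Y4 high 11368, 3780 and 5272. The dimmest MLO-Y4 array was thus brighter than the brightest 2T3 array, while with equal medians the 2 densities of each line overlapped. In 2T3 they did not overlap under the other scalings, where C0 was 1.96-fold brighter than low (quantile) and 1.76-fold (detected-spot). The geometric means rose in the order 2T3 low (736), 2T3 C0 (1369), MLO-Y4 low (4893) and MLO-Y4 high (6096), and the arrays overlapped within the first pair and within the last pair of this order. The SD between arrays on the log2 scale was 0.80, 0.24, 0.86 and 0.81 in these groups (n = 3 each). On the log2 scale the lines differed by 2.44 (SE 0.43, limma fit over all 12 arrays), by 2.73 (SE 0.61) at low density and by 2.15 (SE 0.61) between the 2 denser groups. Scaling moved this size: the difference was 1.41 with quantile normalization and 1.59 under detected-spot scaling, still without overlap. Same-numbered MLO-Y4 arrays deviated together across spots. The SEs between the lines over both densities, here and below, may therefore be too small. By its place on each array, a measure free of scaling, Scd1 outshone 95.8% to 98.5% of spots in 2T3 and 98.6% to 99.4% in MLO-Y4.

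Scd2 ran the other way. In 2T3 C0 it read 408, 70.3 and 112 scaled units and in 2T3 low 99.6, 115 and 118, above the limit on 6 of 6 arrays. In MLO-Y4 low it read 14.5, 14.5 and the floor, and in MLO-Y4 high 40.4, 33.1 and 9.08. No MLO-Y4 array reached the dimmest 2T3 array, and only 1 of 3 MLO-Y4 low and 2 of 3 MLO-Y4 high arrays were above the limit. The geometric means rose in the order MLO-Y4 low (9.43), MLO-Y4 high (23.0), 2T3 low (110) and 2T3 C0 (148), and the arrays of neighbours overlapped except between MLO-Y4 high and 2T3 low. The SD in the same order was 1.08, 1.17, 0.13 and 1.31 (log2, n = 3). The difference between the lines was -3.12 on the log2 scale (SE 0.57), with -3.55 (SE 0.80) at low density and -2.68 (SE 0.80) between the denser groups. It was -3.27 with quantile normalization and -3.95 under detected-spot scaling. Scd2 outshone 75.5% to 93.0% of spots on the 2T3 arrays and 15.5% to 63.9% on the MLO-Y4 arrays. Since part of the MLO-Y4 readings lie near background, the fold is less certain than the direction.

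The log2 ratio of the Scd1 signal to the Scd2 signal on the same array is not changed by multiplying all values of an array by 1 factor, except where a value lies at the floor, but quantile normalization does change it. The 2 spots may bind RNA with different strength, so the ratio says nothing of which gene has more RNA, but its difference between groups shows unequal change. The ratio was 1.84, 4.46 and 3.33 on the 2T3 C0 arrays and 2.09, 2.67 and 3.45 on the 2T3 low arrays. It was 9.25, 8.41 and 9.40 on the MLO-Y4 low arrays and 8.14, 6.84 and 9.18 on the MLO-Y4 high arrays. The lowest MLO-Y4 array lay above the highest 2T3 array. The mean difference between the lines was 5.56 (SE 0.57 over arrays), and 4.68 with quantile normalization. Between MLO-Y4 high and 2T3 C0, where no value lies at the floor, it was 4.84, and 4.04 with quantile normalization. With Scd2 put at the limit on the 3 arrays where it was below it, the line means were 2.98 in 2T3 and 8.01 in MLO-Y4. By density the ratio differed by 0.48 (SE 0.80) in 2T3 and by -0.97 (SE 0.80) in MLO-Y4, with overlapping arrays in both.

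**Figure D2:**
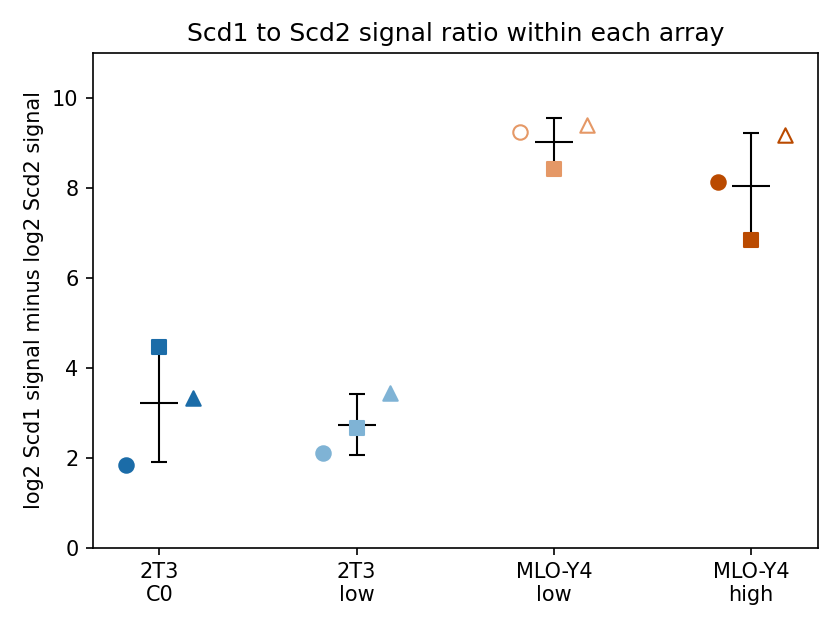
The log2 Scd1 signal minus the log2 Scd2 signal is plotted for each array, with circles, squares and triangles for arrays 1, 2 and 3, bars for group mean and SD (n = 3), and open symbols where Scd2 was not above the limit. The 6 2T3 arrays lie between 1.84 and 4.46 and the 6 MLO-Y4 arrays between 6.84 and 9.40.

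Dhcr7, which acts at the end of cholesterol synthesis, was a dim spot in the osteoblast line and, with equal medians, varied little there. It read 24.5, 21.0 and 25.1 scaled units in 2T3 C0 and 22.2, 16.9 and 22.7 in 2T3 low. In MLO-Y4 low it read 140, 30.9 and 53.0, and in MLO-Y4 high 222, 88.2 and 87.8. Every MLO-Y4 array was brighter than every 2T3 array, and all 12 readings were above the limit. The order of geometric means was 2T3 low (20.4), 2T3 C0 (23.5), MLO-Y4 low (61.2) and MLO-Y4 high (120), with overlap within each line at equal medians, and the SD was 0.24, 0.14, 1.10 and 0.77 (log2, n = 3). The lines differed by 1.97 on the log2 scale (SE 0.42), by 1.58 (SE 0.59) at low density and by 2.35 (SE 0.59) between the denser groups. This separation leaned on the scaling: the difference was 1.43 with quantile normalization and 1.11 under detected-spot scaling, and under both the arrays of the lines overlapped, at low density under the second. Between MLO-Y4 high and 2T3 C0 they did not overlap under any of the 3 scalings. Within MLO-Y4, high and low did not overlap under detected-spot scaling, with high 2.10-fold brighter. The small spread of Dhcr7 in 2T3 also depended on the scaling. On the 2T3 arrays it outshone 48.2% to 58.1% of spots, close to the median that the main scaling makes equal. Under detected-spot scaling its 2T3 readings ran from 21.6 to 43.7 scaled units.

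Pparg was highest in the C0 osteoblasts. It read 257, 95.7 and 61.8 scaled units in 2T3 C0 and 29.6, 25.1 and 49.96 in 2T3 low. In MLO-Y4 low it read the floor, 14.5 and 30.3, with 2 of 3 arrays above the limit, and in MLO-Y4 high 26.2, 5.19 and 12.1, with 0 of 3. All 3 C0 arrays were brighter than all 3 low arrays of 2T3, and the same held under the other 2 scalings. The geometric means fell in the order 2T3 C0 (115), 2T3 low (33.3), then MLO-Y4 low (12.04), then MLO-Y4 high (11.8), and the last pair cannot be ordered, since MLO-Y4 high has only a bound. The SD was 1.05, 0.52, 1.49 and 1.17 (log2, n = 3). In 2T3 the density difference was 1.79 on the log2 scale (SE 0.85), 2.00 with quantile normalization, 1.71 with detected-spot scaling and 1.21 without 2T3 C0 replicate 1, the brightest array. Against 2T3 C0, Pparg was at least 8.26-fold lower in MLO-Y4 high. At low density it differed by -1.47 (SE 0.85) and the arrays overlapped. Over both densities the lines differed by -2.38 (SE 0.60), and MLO-Y4 low replicate 3 read above 2T3 low replicates 1 and 2. Under quantile normalization and detected-spot scaling the arrays of the lines did not overlap, at -2.39 and -3.05.

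**Figure D3:**
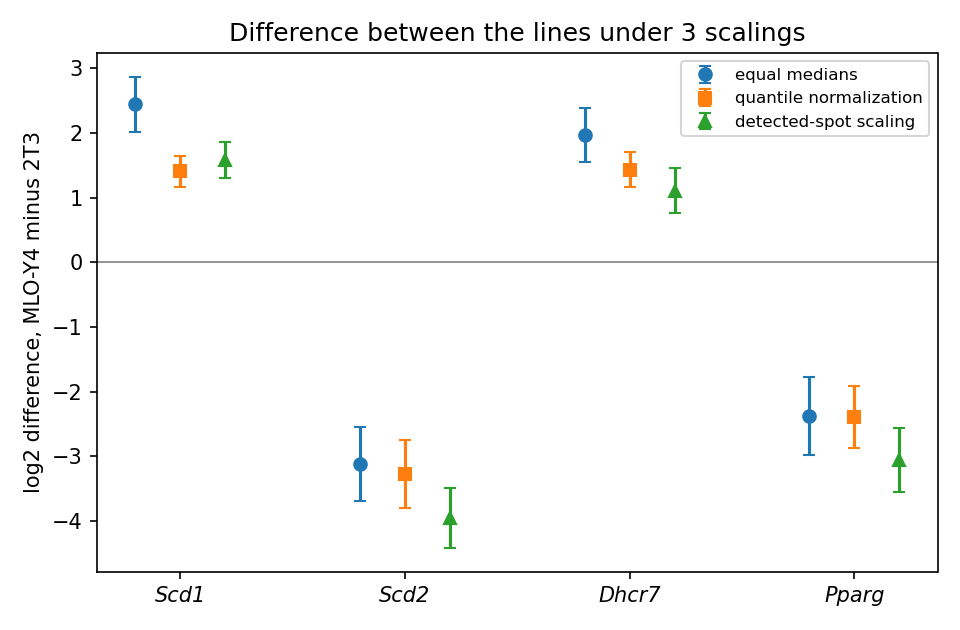
The log2 difference between the lines, MLO-Y4 minus 2T3 over both densities, is plotted for each gene under the 3 ways of scaling the arrays, with the standard error of the limma fit as bars. Scd1 and Dhcr7 lie above 0 and Scd2 and Pparg below 0 under all 3, while the size changes, from 2.44 to 1.41 for Scd1.

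Between the lines, 3 of the 4 genes had no overlap between the 6 arrays of each (Scd1 and Dhcr7 higher in MLO-Y4, Scd2 lower), where 6.86% of all 5030 spots had none, 6.10% higher and 0.755% lower. Between C0 and low in 2T3, 1 of the 4, Pparg, had no overlap with equal medians, and 2, Pparg and Scd1, had none under either other scaling, where 7.10% of all spots had none (3.64% higher, 3.46% lower). Between high and low in MLO-Y4, 0 of the 4 had none with equal medians, and 1, Dhcr7, had none under detected-spot scaling, where 3.86% of all spots did (1.61% higher, 2.25% lower). At low density 3 of the 4 did not overlap between the lines, all but Pparg, where 18.3% of all spots did not (14.0% higher, 4.27% lower). Between the denser groups 4 of the 4 did not, where 16.2% of all spots did not (11.5% higher, 4.75% lower). These background shares are with equal medians. The genes were chosen from these values, so nothing is read from these counts.

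The response to density within MLO-Y4 can be looked at number by number, since MLO-Y4 arrays with the same number deviated together across spots. Scd2 was higher at high density in all 3 pairs, by 1.47, 1.19 and 1.20 on the log2 scale for numbers 1, 2 and 3, although 3 of these 6 readings were not above the limit. Dhcr7 was higher in all 3 pairs, by 0.67, 1.51 and 0.73. Scd1 was higher in 2 of 3 pairs, by 0.36, -0.39 and 0.98. Pparg moved by 2.73, -1.49 and -1.32, between readings near background. The pairs of Scd2 and Dhcr7 kept this direction under quantile normalization and detected-spot scaling. With the number as a block within each line, the MLO-Y4 difference was 1.29 (SE 0.57) for Scd2, 0.97 (SE 0.39) for Dhcr7 and 0.32 (SE 0.52) for Scd1. Same-numbered 2T3 arrays deviated together only weakly. Without a block, C0 minus low in 2T3 was 0.89 (SE 0.61) for Scd1, 0.42 (SE 0.80) for Scd2 and 0.20 (SE 0.59) for Dhcr7. The value for Scd2 was -0.31 without 2T3 C0 replicate 1. The difference between the 2 density effects, MLO-Y4 minus 2T3, was 0.87 (SE 1.13) for Scd2, 0.77 (SE 0.83) for Dhcr7 and -0.58 (SE 0.86) for Scd1. None is given for Pparg, which has only a bound in MLO-Y4 high. Over all spots, limma called 0 of 5030 in either density comparison and in their difference (0%), with 141, 116 and 104 at an unadjusted p under 0.05, in 2T3, in MLO-Y4 and in the difference.

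Other genes of lipid metabolism were read from 6 lists with 214 distinct genes, of which 92 were measured. In the comparison of the lines 9 of 92 rose in MLO-Y4 and 0 fell (9.78% called), against 508 of 5030 spots (10.1%), 414 higher (8.23%) and 94 lower (1.87%), by limma at adjusted p 0.05. The share of called genes was thus close to that of all spots. The p-values and SEs between the lines may be too small, since the fit counts same-numbered MLO-Y4 arrays as independent although they deviated together. The split by direction depended on the scaling: with quantile normalization 6 lipid genes were higher and 3 lower, and under detected-spot scaling 5 were higher and 9 lower, while of all called spots 81.5% were higher with equal medians, 62.6% with quantile normalization and 43.8% under detected-spot scaling. Without both MLO-Y4 arrays numbered 1, 4 lipid genes were higher, Acadm, Cebpb, Crabp2 and Hsd17b7. At low density 3 rose (3.26%, against 3.74% of all spots, 3.22% higher and 0.517% lower), and between the denser groups 2 rose (2.17%, against 2.76%, 2.31% higher and 0.457% lower), with 0 lower in each. By density, 0 of 92 were called in either line.

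**Figure D4:**
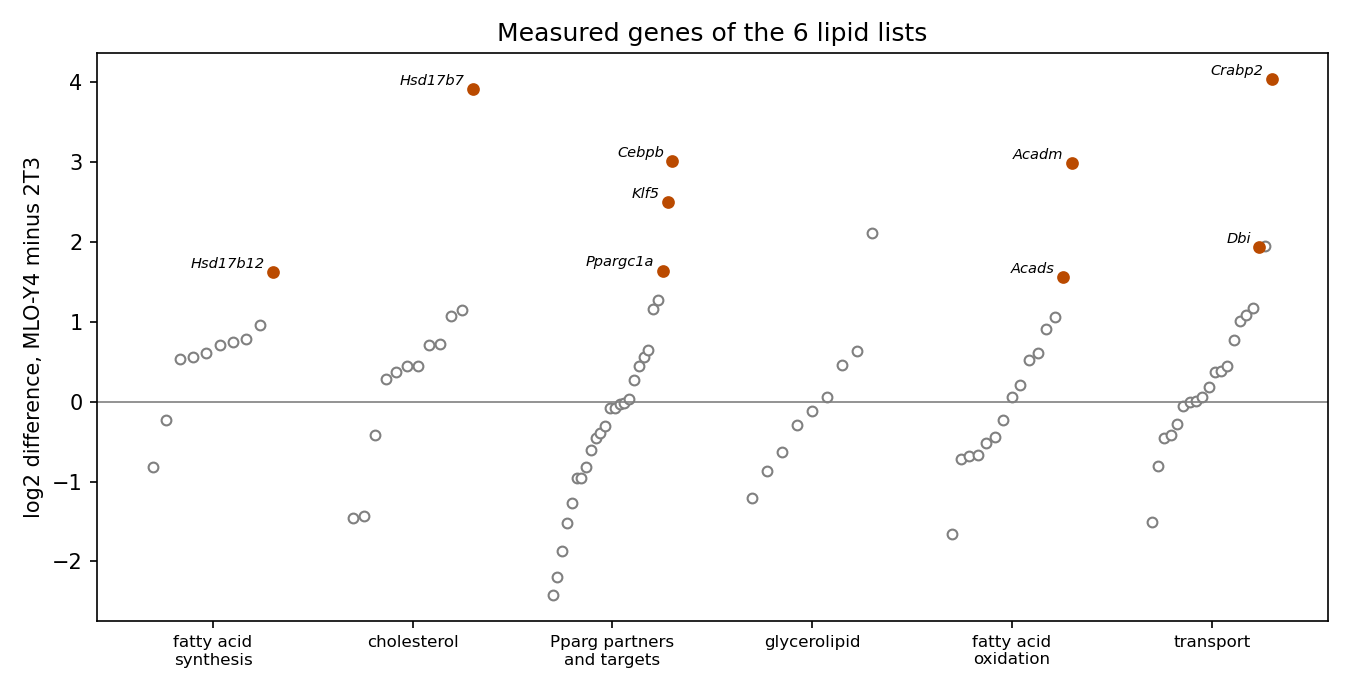
Each point is a measured gene of a lipid list, placed by its log2 difference between MLO-Y4 and 2T3 over both densities with equal array medians. The 9 filled and named points passed limma's adjusted p of 0.05, all of them higher in MLO-Y4, with Crabp2 at 4.04 and Hsd17b7 at 3.91 at the top.

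In cholesterol synthesis, uptake and sensing 1 of 12 measured genes rose, with a list median of 0.45 on the log2 scale where the median was 0.11 over all spots and 0.79 over those above the limit on all arrays. Of the 12 genes, 8 were above the limit on at least 6 arrays. Hsd17b7 encodes a ketosteroid reductase that works some steps before Dhcr7. Its signal was 50.6, 36.7 and 30.7 scaled units in 2T3 C0 and 37.0, 25.7 and 22.7 in 2T3 low, against 1188, 380 and 427 in MLO-Y4 low and 765, 269 and 356 in MLO-Y4 high. The lines were far apart and neither density pair was. Hsd17b7 rose by 3.91 (SE 0.40, limma adjusted p = 1.40e-04), and it was called with every array left out in turn. The neighbouring enzymes gave no call by limma. Sqle, squalene epoxidase, was at 1.07 (SE 0.51, adjusted p = 0.262), Nsdhl, a sterol dehydrogenase, at 1.15 (SE 0.56, adjusted p = 0.272), and Cyp51, the lanosterol demethylase, at 0.29 (SE 0.69, adjusted p = 0.875). Ebp, the sterol isomerase, was at -1.45 (SE 0.59, adjusted p = 0.176) and passed as lower with quantile normalization and detected-spot scaling. Hmgcs1, Sc5d and Srebf2 were not analysed here.

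In fatty acid synthesis, elongation and desaturation 1 of 10 rose (median 0.66). This was Hsd17b12, a reductase of fatty acid elongation (log2 1.62, SE 0.44, limma adjusted p = 0.0422), lost in 10 of 12 fits without 1 array and with either other scaling (0.144 and 0.133). Fads2, the desaturase of polyunsaturated fats, was at 0.74 (SE 0.70, adjusted p = 0.626) and Degs1, a desaturase of sphingolipids, at 0.61 (SE 0.36, adjusted p = 0.385). Neither passed the test in the direction of Scd1 or of Scd2. Srebf1 and Fasn were not analysed here.

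In the list of Pparg partners, regulators and targets 3 of 26 rose and 0 fell (median -0.08). Cebpb, which encodes an early transcription factor of fat cell formation upstream of Pparg, read from 49.96 to 480 scaled units in MLO-Y4 and from the floor to 32.3 in 2T3, a rise of 3.02 on the log2 scale (SE 0.65, limma adjusted p = 0.0131). Klf5, another transcription factor of that programme, was at 2.50 (SE 0.55, adjusted p = 0.0153), a call that ended with quantile normalization (0.0584), with detected-spot scaling (0.0950) and without both MLO-Y4 arrays numbered 1 (0.0670). Ppargc1a, the coactivator of mitochondrial genes, was at 1.64 (SE 0.44, adjusted p = 0.0379) and was lost in 7 of 12 fits without 1 array and with either other scaling (0.0521 and 0.132). These genes were higher where Pparg was lower. The heterodimer partner Rxra was at -1.27 (SE 0.59, adjusted p = 0.246) and was called lower only with detected-spot scaling among the settings named here, while Rxrb was at 0.44 (SE 0.59, adjusted p = 0.757). Cebpd, which acts with Cebpb, was at 0.27 (SE 0.78, adjusted p = 0.901). Cebpa, its later partner in fat cells, was above the limit on 1 of 12 arrays. The targets Lpl, lipoprotein lipase, at -0.60 (SE 0.68, adjusted p = 0.700) and Cd36, a fatty acid transporter, at -0.82 (SE 0.60, adjusted p = 0.501) did not pass, and Cd36 was above the limit on 3 of 12 arrays. Fabp4 was not analysed here. In 2T3, where Pparg was brighter in C0, C0 minus low was 0.55 (SE 0.96) for Lpl, -0.62 (SE 0.84) for Cd36, 1.23 (SE 0.91) for Cebpb and -1.85 (SE 1.10) for Cebpd, none of them called by limma.

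The remaining lists cover the use and transport of fats. In fatty acid oxidation 2 of 15 rose (median 0.05). Acadm, the medium-chain acyl-CoA dehydrogenase, rose by 2.99 (SE 0.51, limma adjusted p = 0.00391), from 11.1 to 88.2 scaled units, and held in all 12 fits without 1 array. Acads, its short-chain relative, was at 1.55 (SE 0.44, limma adjusted p = 0.0485), with 0 of 6 2T3 arrays above the limit. Part of its MLO-Y4 signal was near background too. On the MLO-Y4 arrays numbered 1, low and high, it read 25.4 and 16.2, under their limits of 36.3 and 34.3. On MLO-Y4 high replicate 2 it lay at the floor, so the size is uncertain. The call was lost in 11 of 12 fits without 1 array and with detected-spot scaling (0.226). In fatty acid and lipoprotein transport 2 of 20 rose (median 0.28). Crabp2, which carries retinoic acid to the nucleus, rose by 4.04 (SE 0.49, limma adjusted p = 4.71e-04), from 15.98 to 263 scaled units, in all 12 fits. Its relative Crabp1 was not called with equal medians and was called lower in MLO-Y4 under both other scalings. Dbi, the acyl-CoA-binding protein gene, rose by 1.93 (SE 0.47, adjusted p = 0.0243), from 316 to 1205 scaled units, and was lost in 5 of 12 fits and without both MLO-Y4 arrays numbered 1 (0.0552). Of 9 measured genes of glycerolipid and phospholipid synthesis 0 were called with equal array medians, while Chka, which encodes choline kinase, was called lower in MLO-Y4 under both other scalings.

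Among 2899 candidate spots above the limit on at least 6 of 12 arrays, the genes whose levels most resembled each of the 4 were found by Pearson's r over the 12 arrays, given as a description. The 12 points fall into 2 lines and share each array's scaling. For Scd1 they were Anpep, an aminopeptidase gene (0.98), the kinase gene Akt2 (0.98) and Cebpb (0.98). For Scd2 they were the microfibril gene Mfap5 (0.91), the RNA-binding protein gene Lsm4 (0.89) and Fscn1, whose product bundles actin (0.88). For Dhcr7 they were H2-T23, a class I histocompatibility gene (0.96), the proteasome activator gene Psme1 (0.95) and the interferon-induced gene Ifit3 (0.94). Ifit3 lay at the floor on all 6 2T3 arrays and was above the limit only in MLO-Y4, so its r includes the difference between the lines. With the group means taken out its r with Dhcr7 was 0.84, which rests on the MLO-Y4 arrays alone. For Pparg they were Fech, the last enzyme of haem synthesis (0.90), the signalling inhibitor gene Spry1 (0.88) and the actin regulator gene Evl (0.86). Among the 4 genes themselves, Pearson's r over the 12 arrays was 0.88 between Scd1 and Dhcr7 and 0.66 between Scd2 and Pparg. With the group means taken out, r was 0.59 for the first pair and 0.02 for the second.

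The spots of Scd1, Scd2 and Dhcr7 belong to the block of 312 spots whose names begin with B, and that of Pparg to the block of 295 named with P. The median log2 difference between the lines was 0.19 over block B and 0.0053 over block P, within the range of all 16 blocks, -0.08 to 0.36. Scd1 and Scd2, both in block B, moved in opposite directions, and whether the place of a spot on the array played a part was not tested.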

How the data were processed

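The authors deposited 1 linear intensity per spot and array, whole numbers between -23 and 53055. The unit was judged from the values, and negative ones mean that background had been subtracted. How this was done, and with which software, is not given in the sources used here. The 4 genes, the gene lists, the floor and the limit were chosen with earlier results of these data known.

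A platform annotation table lists 4638 of 5030 spots, 4633 with 1 symbol and 5 with several, and leaves 392 unnamed. Entrez identifiers gave current symbols for 4624 spots. Arrays were scaled to equal medians, floored at the 25th percentile and put on the log2 scale. limma 3.58.1 in R 4.3.3 fitted 4 group means over 12 arrays (8 residual degrees of freedom), with two-sided moderated tests adjusted by Benjamini-Hochberg over all 5030 spots, and no filter on dim spots. All fold changes are differences of these log2 values. The fit was tested on simulated data. Where no array of a group exceeded its limit, the fold is a bound: the bright mean is divided by the mean, over the dim arrays, of the limit or the reading, whichever was higher.

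Named lipid genes were those called (up to 6 a list) plus set partners of the 4 genes. A few genes uncalled with equal medians, Sqle, Nsdhl, Cyp51, Ebp, Fads2, Degs1, Chka and Crabp1, were named after their values were seen. Genes most like a member were the 3 with the highest r.

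Whether equal numbers pair arrays was judged by how their deviations from the group means correlated. It was 0.63, 0.48 and 0.51 for numbers 1, 2 and 3 in MLO-Y4, over 0.1 for each, and 0.07, 0.10 and 0.11 in 2T3, so the numbers were taken to pair arrays in MLO-Y4 alone, on the data and not the labels. Alternatives were other scalings, a floor at the 40th percentile, a filter on dim spots, the replicate block and each array left out. The number of arrays limits every value.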

Additional observations from a re-analysis of the deposited data

How the results depend on the processing

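The signs of the line differences of Scd1, Scd2, Dhcr7 and Pparg, and of the Scd1 to Scd2 ratio, were kept in all alternatives run. Sizes moved with scaling: Scd1 was at 1.41 with quantile normalization and 1.59 under detected-spot scaling, and Dhcr7 at 1.11 with the latter. The line difference of the Scd1 to Scd2 ratio was 4.68 with quantile normalization, its lowest value. Without both MLO-Y4 arrays numbered 1, an alternative chosen after seeing the data, the MLO-Y4 density difference of Pparg was -1.40, between readings of which 2 of 4 were above the limit. Without 1 array the line difference ran from 2.22 to 2.66 for Scd1, -3.38 to -2.75 for Scd2, 1.67 to 2.21 for Dhcr7 and -2.71 to -1.98 for Pparg, and that of the ratio from 5.22 to 5.87. Over the same fits the density difference of Pparg in 2T3 ran from 1.21 to 2.23, and those of Scd1 in MLO-Y4 (-0.13 to 0.74), Pparg in MLO-Y4 (-0.83 to 0.64), Scd2 in 2T3 (-0.31 to 0.95) and the ratio in 2T3 (-0.15 to 1.16) crossed 0.

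Counts of called spots ran from 358 to 515 between the lines without 1 array, from 106 to 246 at low density and from 79 to 170 between the denser groups. With the replicate block they were 629, 308 and 236, and with the block within each line, chosen after seeing the data, 707, 360 and 288. The block within each line takes the spread between numbers out of the error, so its counts between the lines may be too high. The replicate block treats a number as shared by both lines. Yet the lowest correlation of same-numbered arrays from any pair of groups was -0.03, -0.12 and 0.09 for numbers 1, 2 and 3. Either block called 0 spots in both density comparisons. With the floor at the 40th percentile 2 spots were called by density in 2T3. Called lipid genes between the lines were 14 with detected-spot scaling, 4 without both MLO-Y4 arrays numbered 1, and 5 to 9 without 1 array (5 without 2T3 C0 replicate 3 and without 2T3 low replicate 2). At low density they were 5 with the block within each line and 2 to 4 without 1 array. Between the denser groups they were 1 without both MLO-Y4 arrays numbered 1 and 1 to 3 without 1 array. The cause of these shifts was not tested. Same-numbered 2T3 arrays deviated together only weakly, with r of 0.07, 0.10 and 0.11. Each 2T3 array correlated best with its own number, 6 of 6. Readings near background limit Scd2 and Pparg in MLO-Y4.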
